A study of Mus musculus with 6 samples.

Results

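The Cyp2c family of mouse liver was described here by 10 genes, Cyp2c29, Cyp2c37, Cyp2c38, Cyp2c39, Cyp2c40, Cyp2c50, Cyp2c54, Cyp2c67, Cyp2c68 and Cyp2c69. They were taken by symbol from the 54532 gene identifiers of the deposited tables, and all 10 had a value in every library. RNA of whole liver was sequenced in 6 libraries. The libraries labelled LKO (n = 3) came from livers of Arid2 LKO mice, and those labelled WT (n = 3) from livers of Arid2 WT mice; both were untreated. The labels do not spell out LKO, and they do not give the strain, age or sex of the mice, the promoter that drives a Cre, or whether each library is a separate animal. The p-values below therefore measure the spread between these libraries, which may be technical.

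Cyp2c enzymes are cytochrome P450 monooxygenases of the endoplasmic reticulum. They oxidise drugs, steroids and fatty acids, and several turn arachidonic acid into epoxides or hydroxy acids that act as local signals. In mouse liver they are made by hepatocytes, several of them mainly around the central vein, and some respond to the xenobiotic receptors CAR and PXR. Others differ between the sexes under the control of pituitary growth hormone: Cyp2c40 and Cyp2c69 are known as genes of female liver. All 10 genes lie in a cluster on chromosome 19.

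Values were FPKM, which are relative to the length of a gene's merged exons and to a scale set for each library by the authors. The steps of these values corresponded to between 13947787 and 18159285 reads per library. Both libraries numbered 1 stood apart: 2368 (LKO) and 2003 (WT) genes had 1 to 5 reads there, against 3913 to 4263 in the remaining libraries. Mitochondrial transcripts took 4.76% to 27.6% of reads in the libraries labelled LKO and 10.2% to 20.7% in those labelled WT. Arid2, the targeted gene, was at 2.55, 1.33 and 2.04 FPKM in the libraries labelled LKO and at 2.65, 1.74 and 1.79 FPKM in those labelled WT. These values overlapped, and they are sums over the whole gene, so Arid2 did not check the labels; every direction below is between libraries labelled LKO and libraries labelled WT. Hepatocyte markers (Alb, Apoa1, Ttr, Hnf4a, Cps1 and Cyp2e1) summed to between 50125 and 66019 FPKM in the libraries labelled LKO and between 44493 and 58792 FPKM in those labelled WT, and each of the 6 was present in every library. In bulk RNA, fewer cells of a type and less RNA per cell cannot be told apart.

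The close copies within the family decide how far a value can be assigned to a gene, so their sequences come before their levels. By coding identity the 10 genes fell into 3 sets. Cyp2c40, Cyp2c67, Cyp2c68 and Cyp2c69 were 96.5% to 98.1% identical to each other and at most 79.7% to any other member. Cyp2c37, Cyp2c50 and Cyp2c54 were 95.1% to 96.1% identical to each other, and Cyp2c29, Cyp2c38 and Cyp2c39 89.1% to 94.2%. Between these last sets the highest identity was 83.5%. A stretch of 60 coding bases shows how little separates the Cyp2c40 copies. It spans coding bases 264 to 323 of Cyp2c67, Cyp2c68 and Cyp2c69 and 351 to 410 of Cyp2c40, whose annotated coding sequence is longer (1563 against 1476 bases). Capitals mark the 8 positions at which the copies differ.
Cyp2c40: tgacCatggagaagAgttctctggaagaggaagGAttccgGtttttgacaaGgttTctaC
Cyp2c69: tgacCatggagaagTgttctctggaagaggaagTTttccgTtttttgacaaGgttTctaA
Cyp2c68: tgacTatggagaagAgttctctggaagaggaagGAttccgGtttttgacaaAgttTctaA
Cyp2c67: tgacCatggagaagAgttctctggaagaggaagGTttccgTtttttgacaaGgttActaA
The windows were chosen to show variable positions, and outside the capitals the 4 lines are identical. A read that falls between such positions cannot be given to a single copy.

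The Cyp2c37 copies differed more. In the stretch from coding base 791 to 850, shown for the same reason, 13 positions marked by capitals differed between them.
Cyp2c37: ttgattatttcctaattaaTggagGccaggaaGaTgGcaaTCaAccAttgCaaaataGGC
Cyp2c54: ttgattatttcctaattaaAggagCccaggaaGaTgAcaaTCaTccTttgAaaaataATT
Cyp2c50: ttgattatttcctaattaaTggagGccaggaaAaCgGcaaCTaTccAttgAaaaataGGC
Over whole transcripts, 34.4% of all 100-base stretches of Cyp2c40 and 35.4% of those of Cyp2c69 also occurred in another Cyp2c gene. The share was 23.7% for Cyp2c67 and 19.8% for Cyp2c68. It was 4.70% for Cyp2c37, 5.35% for Cyp2c50 and 7.59% for Cyp2c54. For Cyp2c29 it was 1.36%, all of it shared with the overlapping pseudogene Cyp2c53-ps, and Cyp2c38 and Cyp2c39 had no such stretch. The labels do not say how reads that match several copies were counted, so levels of the Cyp2c40 copies in particular are uncertain. A sum over copies is less exposed to this than a single gene if such reads were divided between copies. If they were left out, the sum lacks them too. With stretches of 50 bases the shares were higher, up to 60.3% for Cyp2c40, and with 150 bases lower, 20.3% for Cyp2c40 and 20.2% for Cyp2c69.

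**Figure D1:**
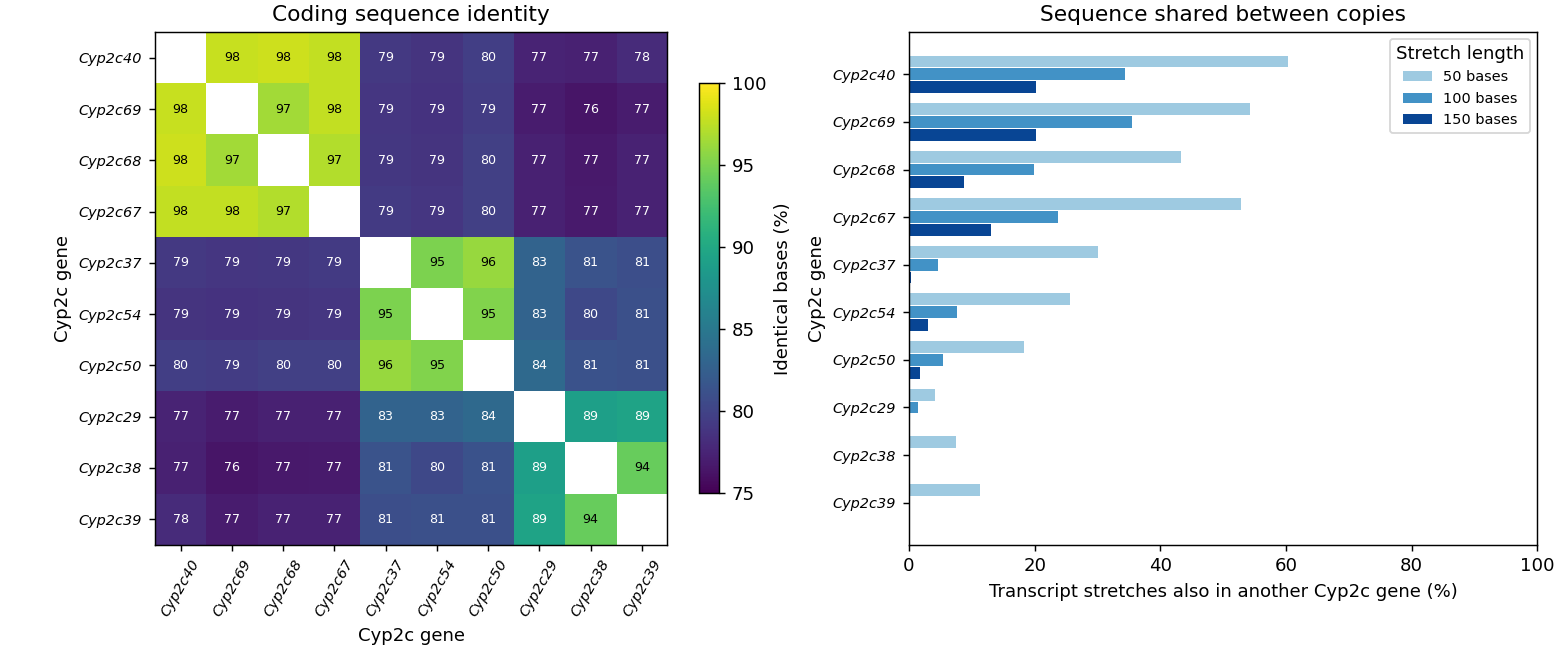
Identity of coding sequences between the 10 Cyp2c genes (left, percent of identical bases, 1 square per pair) and the percent of transcript stretches of 50, 100 or 150 bases that also occur in another Cyp2c gene (right, 1 bar per stretch length). The 3 bright squares on the diagonal are the 3 sets of copies, and Cyp2c40 and Cyp2c69 share the most sequence, 34.4% and 35.4% of stretches of 100 bases.

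The Cyp2c40 copies are also near copies upstream of their start. In the 250 bases before the RefSeq start (build GRCm38.p6), Cyp2c40 and Cyp2c69 were identical at 98.6% of 220 paired bases, and pairs with Cyp2c67 or Cyp2c68 at 92.9% to 95.4%. The 9-letter motif CAAAGTCCA, a form of the site bound by HNF4 factors, was searched on both strands and is shown in capitals within 150 of these bases. The printed windows end at the more upstream of the RefSeq and GENCODE starts, 30 bases before the RefSeq start for Cyp2c69 and 9 for Cyp2c67, so they do not hold every match counted below. The windows, all on the minus strand of chromosome 19, are chr19:39812815-39812964 (Cyp2c40), chr19:39886800-39886949 (Cyp2c69), chr19:39741102-39741251 (Cyp2c68) and chr19:39649052-39649201 (Cyp2c67).
Cyp2c40: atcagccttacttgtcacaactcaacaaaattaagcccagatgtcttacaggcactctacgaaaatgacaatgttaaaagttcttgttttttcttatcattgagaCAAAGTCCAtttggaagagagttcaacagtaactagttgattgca
Cyp2c69: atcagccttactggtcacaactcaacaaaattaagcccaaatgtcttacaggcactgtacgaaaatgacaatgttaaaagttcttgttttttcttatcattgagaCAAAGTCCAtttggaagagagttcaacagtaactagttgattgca
Cyp2c68: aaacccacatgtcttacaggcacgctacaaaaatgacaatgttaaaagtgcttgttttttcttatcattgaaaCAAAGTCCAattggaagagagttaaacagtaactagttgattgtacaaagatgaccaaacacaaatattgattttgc
Cyp2c67: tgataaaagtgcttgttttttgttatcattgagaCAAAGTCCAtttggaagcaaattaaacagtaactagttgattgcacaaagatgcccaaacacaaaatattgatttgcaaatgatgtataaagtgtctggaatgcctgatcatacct
This motif occurred in the window of each of these 4 genes, in none of the other 6 member windows, and in 0.384% of 32851 RefSeq windows of the same length. The 4 windows are near copies of each other, so their matches are not independent and do not count as an enrichment. The RefSeq table gave 10 windows for 9 of the members, with 2 starts for Cyp2c39 and none for Cyp2c54. ATTGAT, a core of the HNF6 site, was found for Cyp2c37, Cyp2c50, Cyp2c67, Cyp2c68 and Cyp2c69, against 6.72% of all windows. TTGCNNAA, a C/EBP-type motif, was found for Cyp2c37, Cyp2c67 and Cyp2c69 (9.56% of all windows), and TGTTTAC, a FOXA-type motif, for Cyp2c38 and Cyp2c39 (3.17%). Neither the ATTGAT nor the TTGCNNAA match of Cyp2c69 lies within its printed bases. The searched window of Cyp2c69 ran 30 bases past the printed one and that of Cyp2c40 did not, so the windows of these copies do not cover the same stretch. TATAAA was found for Cyp2c29, Cyp2c38 and Cyp2c67 (12.4%). TTCNNNGAA, a STAT5-type motif, matched none of the 10 windows and 7.02% of all windows. A match is a run of letters, not a bound site, and a missing match says only that these letters are not in these windows.

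Across the family, levels were higher in the libraries labelled LKO for Cyp2c40, Cyp2c69, Cyp2c37 and Cyp2c68, whose groups did not overlap, and no member passed the test across all genes. Of the 10 members, 0 were called by limma-trend at an adjusted p under 0.05 (0.0428% of the 11672 genes tested were called, 0.00857% higher and 0.0343% lower), and 0 by voom on the recovered reads. At an unadjusted p under 0.05, limma-trend counted 4 of 10 members, all higher in the libraries labelled LKO, where the background was 4.28% in that direction and 4.93% in the other; voom also counted 4. In all 3 libraries labelled LKO, 4 of 10 members were higher than in every library labelled WT, against 8.0% of all genes tested; no member was lower in this way (7.42% of all genes). The log2 difference, LKO minus WT on the log2(FPKM + 1) scale, was above 0 for 9 of 10 members (54.1% of all genes), with a median of 0.95 over the members and 0.03 over all genes tested. The unadjusted count dropped to 2 when WT replicate 1 was left out, as it did for LKO replicate 2, and was 5 without both libraries numbered 1.

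**Figure D2:**
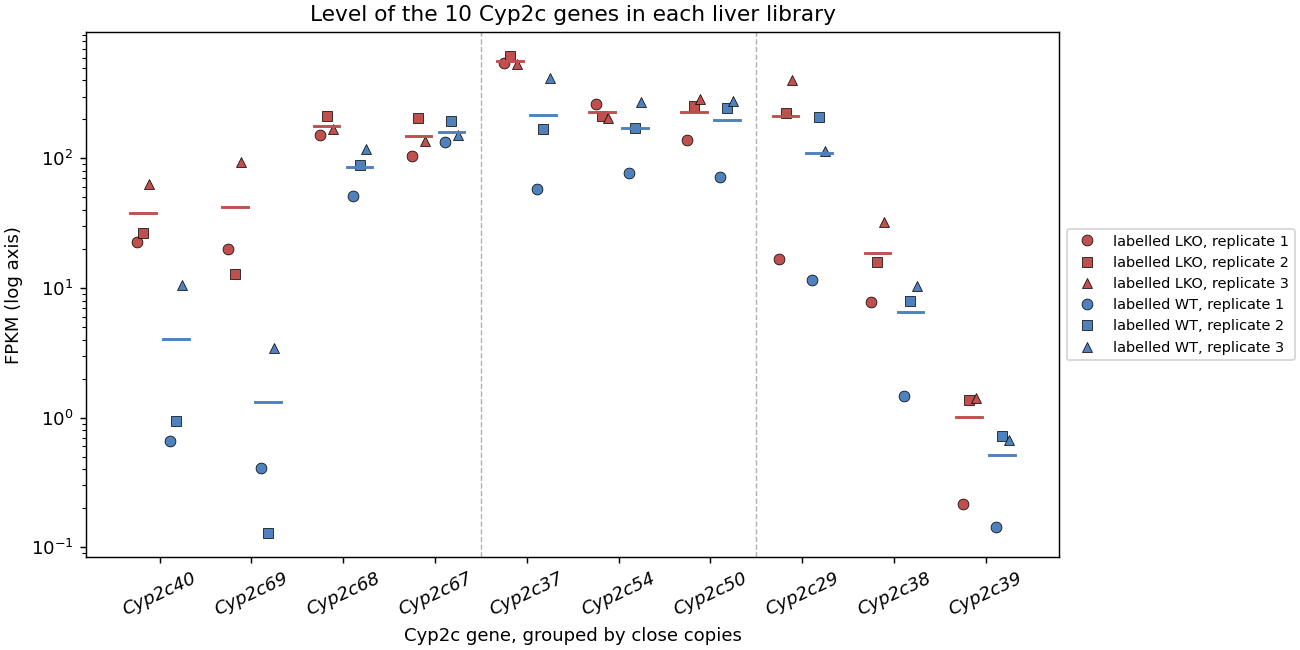
FPKM of the 10 Cyp2c genes in each library on a log axis, libraries labelled LKO in red to the left of those labelled WT in blue; marker shapes give the replicate number, horizontal lines the mean of 3 libraries, and dashed lines divide the sets of close copies. The red and blue points do not overlap for Cyp2c40, Cyp2c69, Cyp2c68 and Cyp2c37.

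Among the Cyp2c40 copies, Cyp2c40, Cyp2c69 and Cyp2c68 were higher in each library labelled LKO than in any labelled WT, and Cyp2c67 overlapped. Cyp2c40, which hydroxylates arachidonic acid (ENSMUSG00000025004, chromosome 19, 39767071 to 39812814, minus strand, mm10), was at 22.7, 26.6 and 63.8 FPKM in the libraries labelled LKO, from 588, 846 and 2468 reads. In the libraries labelled WT it was at 0.662, 0.949 and 10.6 FPKM, from 26, 34 and 337 reads. WT replicate 3 stood well above the other libraries labelled WT and was still below every library labelled LKO. The means were 37.7 ± 22.7 and 4.07 ± 5.65 FPKM (LKO and WT, SD, n = 3 each), a ratio of 9.27. That ratio was 46.8 without WT replicate 3 and 6.06 without LKO replicate 3. The log2 difference was 3.38 ± 0.77 (SE; 95% interval 1.58 to 5.18; limma adjusted p = 0.239).

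Cyp2c69, its closest copy upstream of the start and likewise a gene of female liver (ENSMUSG00000092008, 39842814 to 39886799, minus strand), was at 20.1, 12.8 and 93.7 FPKM in the libraries labelled LKO, from 437, 341 and 3040 reads. The libraries labelled WT had 0.410, 0.128 and 3.44 FPKM, from 14, 4 and 92 reads. As for Cyp2c40, replicate 3 was the highest library on either side and the groups did not overlap. Its means were 42.2 ± 44.7 FPKM (LKO) and 1.32 ± 1.83 FPKM (WT), a ratio of 31.8 that rests on 110 reads in the libraries labelled WT, 92 of them in replicate 3. It was 157 without WT replicate 3 and 12.4 without LKO replicate 3. This was the largest log2 difference among the 10 members, 3.98 ± 0.79 (SE; 95% interval 2.12 to 5.84; limma adjusted p = 0.187). Leaving out any 1 library gave 3.15 to 4.58 for Cyp2c69 and 2.87 to 4.28 for Cyp2c40, and leaving out both libraries numbered 1 gave 4.01 and 3.15.

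Cyp2c68 (ENSMUSG00000074882, 39688834 to 39741054, minus strand) was an abundant gene in both groups, with 150.4, 214 and 169 FPKM in the libraries labelled LKO and 51.5, 89.2 and 118 FPKM in those labelled WT. Here too every library labelled LKO was above every library labelled WT. Its means were 178 ± 32.5 and 86.1 ± 33.2 FPKM (LKO and WT), and the log2 difference was 1.10 ± 0.38 (SE; 95% interval 0.20 to 1.99; limma adjusted p = 0.437).

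Cyp2c67 (ENSMUSG00000062624, 39608842 to 39649051, minus strand) did not share this pattern. It was at 105, 207 and 137 FPKM in the libraries labelled LKO and at 133, 193 and 152 FPKM in those labelled WT, so the groups overlapped. Its log2 difference was -0.13 ± 0.36 (SE; 95% interval -0.97 to 0.71; limma adjusted p = 0.953), and its sign turned without LKO replicate 1 (0.10) or WT replicate 2 (0.02).

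Of the Cyp2c37 copies, the namesake had the highest mean FPKM of the 10 members in both groups. Cyp2c37, an arachidonic acid hydroxylase that responds to phenobarbital-like inducers (ENSMUSG00000042248, 39992424 to 40012243, plus strand), was at 543, 615 and 536 FPKM in the libraries labelled LKO. It was at 58.1, 169 and 417 FPKM in the libraries labelled WT. The libraries labelled LKO lay close together (mean 565 ± 44.0 FPKM), while those labelled WT spread widely below them (215 ± 184 FPKM). Its log2 difference was 1.81 ± 0.67 (SE; 95% interval 0.25 to 3.36; limma adjusted p = 0.466), and it was 1.08 without WT replicate 1 and 1.11 without both libraries numbered 1.

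Cyp2c54, an epoxygenase of arachidonic acid (ENSMUSG00000067225, 40037940 to 40073827, minus strand), was at 261, 213 and 205 FPKM in the libraries labelled LKO and at 76.8, 171 and 271 FPKM in those labelled WT. Cyp2c50, an enzyme of the same activity (ENSMUSG00000054827, 40089688 to 40113950, plus strand), was at 139, 255 and 287 FPKM in the libraries labelled LKO and at 72.0, 247 and 275 FPKM in those labelled WT. For both genes WT replicate 1 was the lowest library and the groups overlapped. Cyp2c54 had a log2 difference of 0.55 ± 0.48 (SE; limma adjusted p = 0.805) and Cyp2c50 of 0.35 ± 0.58 (SE; limma adjusted p = 0.910). Without WT replicate 1 they were 0.06 and -0.26, so the sign of Cyp2c50 turned.

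Among the Cyp2c29 copies the groups overlapped for every gene. Cyp2c29, an epoxygenase and a standard readout of CAR activation (ENSMUSG00000003053, 39269405 to 39330713, plus strand), was at 16.6, 223 and 402 FPKM in the libraries labelled LKO and at 11.6, 207 and 113 FPKM in those labelled WT. Both libraries numbered 1 were far below the remaining 4. On the log2 scale the difference was 0.80 ± 1.39 (SE; 95% interval -2.45 to 4.05; limma adjusted p = 0.917), the widest interval of the family. Leaving out LKO replicate 1 gave 2.17, leaving out WT replicate 1 gave -0.40, leaving out LKO replicate 3 gave -0.09, and leaving out both libraries numbered 1 gave 0.96.

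Cyp2c38, which also epoxidises arachidonic acid (ENSMUSG00000032808, 39389556 to 39463075, minus strand), was at 7.85, 15.9 and 32.4 FPKM in the libraries labelled LKO and at 1.46, 7.89 and 10.4 FPKM in those labelled WT. Replicate 1 was again the lowest on either side, and LKO replicate 1 lay just below WT replicates 2 and 3. Its log2 difference was 1.44 ± 0.68 (SE; 95% interval -0.15 to 3.04; limma adjusted p = 0.591), and it was 0.77 without WT replicate 1 and 0.96 without LKO replicate 3. Cyp2c39, an enzyme that oxidises retinoic acid (ENSMUSG00000025003, 39510862 to 39568529, plus strand), was close to the limit of these libraries, with 0.217, 1.37 and 1.42 FPKM in those labelled LKO and 0.143, 0.720 and 0.669 FPKM in those labelled WT. Between 5 and 49 reads stood behind each of these values, and the log2 difference was 0.36 ± 0.33 (SE; limma adjusted p = 0.810). With single libraries left out it lay between 0.17 and 0.69, and voom on the recovered reads gave 1.02.

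**Figure D3:**
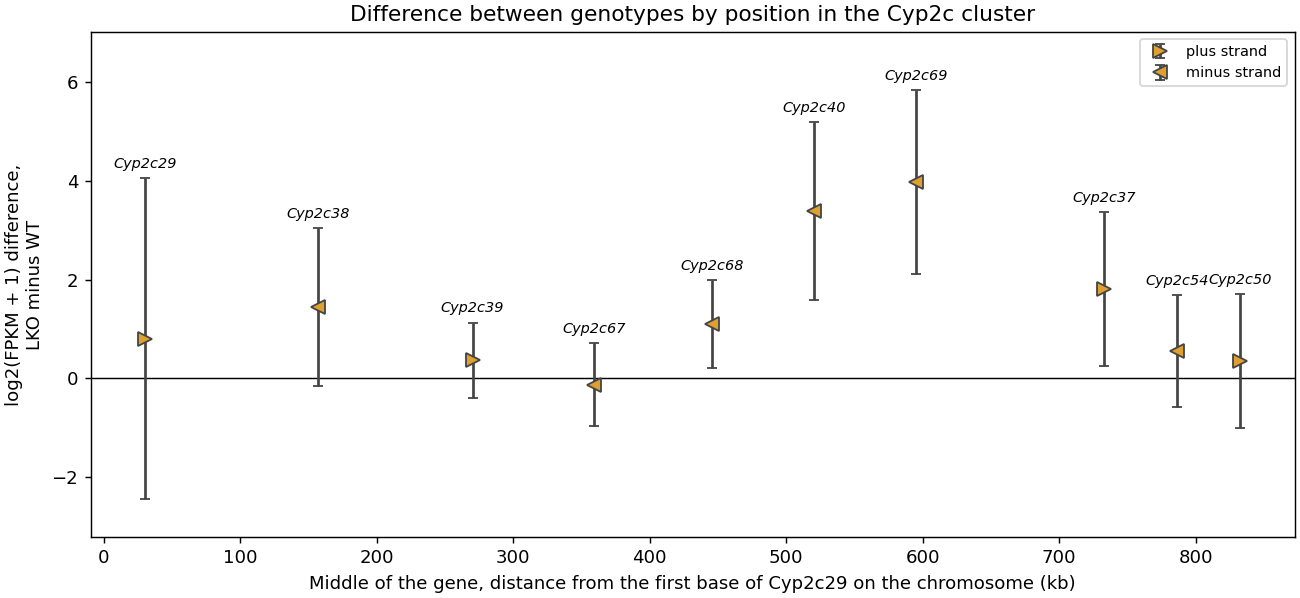
Log2 difference (LKO minus WT, log2(FPKM + 1) scale) of the 10 Cyp2c genes against the distance of the gene's middle from the first base of Cyp2c29, in kilobases; bars are 95% intervals from limma and triangles point in the direction of the strand. Cyp2c40 and Cyp2c69, neighbours on the minus strand, have the highest values, 3.38 and 3.98, and Cyp2c67, a copy further left in the same array, lies at -0.13.

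In position, the 4 Cyp2c40 copies stand next to each other on the minus strand, and the log2 difference was larger from Cyp2c67 through Cyp2c68 and Cyp2c40 to Cyp2c69 (-0.13, 1.10, 3.38 and 3.98). The levels in the libraries labelled WT ran the other way along these genes, with means of 159, 86.1, 4.07 and 1.32 FPKM. The same WT values enter the log2 differences, so an inverse order is partly built in. On either side of these copies, Cyp2c39 and Cyp2c37 had log2 differences of 0.36 and 1.81. The order of these 4 values is a description of 4 genes that share sequence, with no test.

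Ordered by mean FPKM, the libraries labelled LKO had Cyp2c37 first, then Cyp2c50, Cyp2c54, Cyp2c29, Cyp2c68, Cyp2c67, Cyp2c69, Cyp2c40, Cyp2c38 and Cyp2c39. Neighbours in that order had ranges that did not overlap only between Cyp2c37 and Cyp2c50, Cyp2c67 and Cyp2c69, and Cyp2c38 and Cyp2c39. In the libraries labelled WT the order was Cyp2c37, Cyp2c50, Cyp2c54, Cyp2c67, Cyp2c29, Cyp2c68, Cyp2c38, Cyp2c40, Cyp2c69 and Cyp2c39, and only Cyp2c68 and Cyp2c38 had ranges that did not overlap. The order depends on the length used. The merged exons of Cyp2c29 (3061 bases) and Cyp2c50 (2918 bases) are longer than their main transcripts (1783 and 1812 bases). Per main transcript, Cyp2c29 came to 367 ± 331 FPKM in the libraries labelled LKO, second to Cyp2c37, and Cyp2c50 came first in those labelled WT with 319 ± 177 FPKM.

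Summed over the 10 members, the Cyp2c level was 1266, 1784 and 1927 FPKM in the libraries labelled LKO and 405, 1087 and 1372 FPKM in those labelled WT. LKO replicate 1 lay below WT replicate 3, so the groups overlapped. The means were 1659 ± 348 FPKM (LKO) and 955 ± 496 FPKM (WT), a ratio of 1.74, and 1.67 after scaling each library to its recovered reads. The sum over the Cyp2c40 copies was 298, 460 and 463 FPKM in the libraries labelled LKO and 185, 283 and 284 FPKM in those labelled WT, and here the groups did not overlap. After scaling to recovered reads these sums were 271, 425 and 485 against 211, 288 and 274, so LKO replicate 1 then lay below WT replicates 2 and 3. The Cyp2c37 copies summed to 943, 1084 and 1028 FPKM in the libraries labelled LKO and to 207, 587 and 963 FPKM in those labelled WT. The Cyp2c29 copies summed to 24.7, 240.3 and 436 FPKM against 13.2, 216 and 125 FPKM. Both sums overlapped between the groups.

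**Figure D4:**
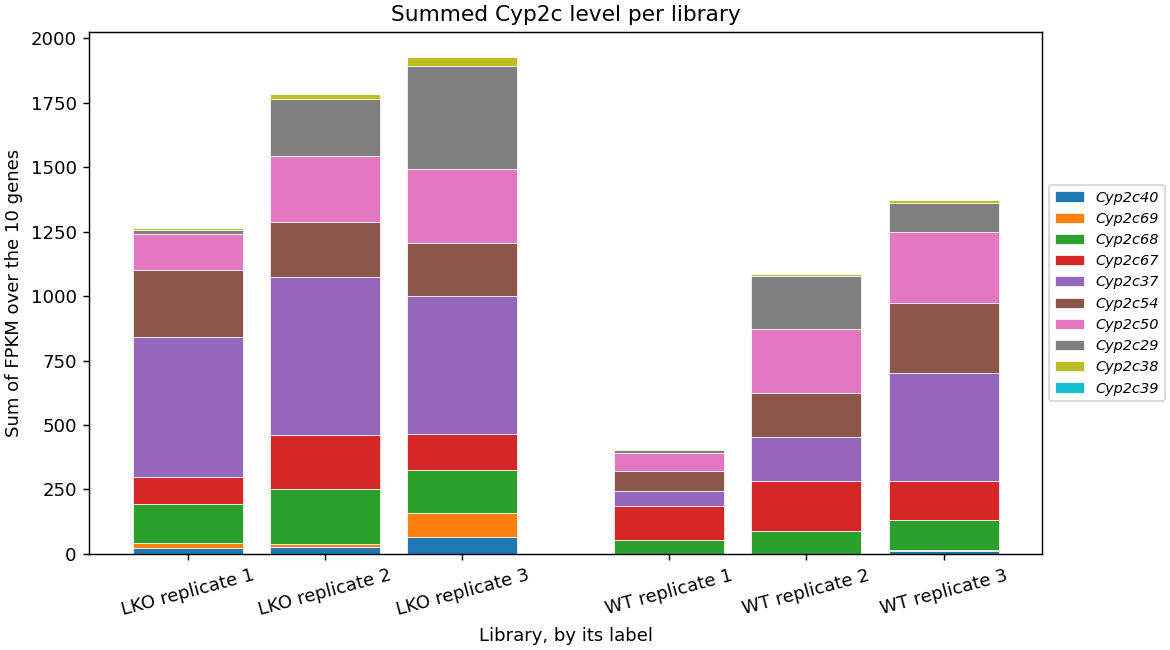
Sum of FPKM over the 10 Cyp2c genes in each library, stacked by gene, with the libraries labelled LKO on the left and those labelled WT on the right. The bars reach 1266 to 1927 FPKM in the libraries labelled LKO and 405 to 1372 FPKM in those labelled WT, and Cyp2c37 makes up the largest piece in every library labelled LKO.

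The make-up of that sum also differed. Cyp2c40 made up 1.49% to 3.31% of the summed FPKM in the libraries labelled LKO and 0.0873% to 0.772% in those labelled WT. Cyp2c69 made up 0.715% to 4.86% in the libraries labelled LKO and 0.0118% to 0.251% in those labelled WT. Cyp2c50 took a smaller share in the libraries labelled LKO, 11.0% to 14.9%, than in those labelled WT, 17.8% to 22.7%. Shares of a sum depend on each other, and the FPKM of Cyp2c50 itself overlapped between the groups, with means of 227 (LKO) and 198 (WT). The groups overlapped for Cyp2c37, at 27.8% to 42.9% (LKO) and 14.3% to 30.4% (WT), and for Cyp2c67, at 7.11% to 11.6% (LKO) and 11.1% to 32.7% (WT).

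Ratios between copies within a library do not depend on the scale given to that library. The 8 pairs below were chosen after values had been seen, so the ratios are a description with no test. Cyp2c40 stood at 0.217, 0.129 and 0.466 of the FPKM of Cyp2c67 in the libraries labelled LKO and at 0.00499, 0.00491 and 0.0697 in those labelled WT. Cyp2c69 stood at 0.192, 0.0617 and 0.684 of Cyp2c67 in the libraries labelled LKO and at 0.00309, 0.000665 and 0.0226 in those labelled WT. Neither ratio overlapped between the groups, and both were highest in replicate 3 on either side. Cyp2c68 exceeded Cyp2c67 in all 3 libraries labelled LKO, with ratios of 1.44, 1.03 and 1.23, and was below it in all 3 labelled WT, with 0.388, 0.462 and 0.775. Cyp2c37 had 3.91, 2.41 and 1.87 times the FPKM of Cyp2c50 in the libraries labelled LKO and 0.806, 0.684 and 1.52 times in those labelled WT. Relative to Cyp2c54, Cyp2c37 had ratios of 2.08, 2.89 and 2.62 in the libraries labelled LKO and 0.756, 0.985 and 1.54 in those labelled WT. The groups did not overlap for these 3 ratios either. They did overlap for Cyp2c69 to Cyp2c40, Cyp2c38 to Cyp2c29 and Cyp2c54 to Cyp2c50.

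**Figure D5:**
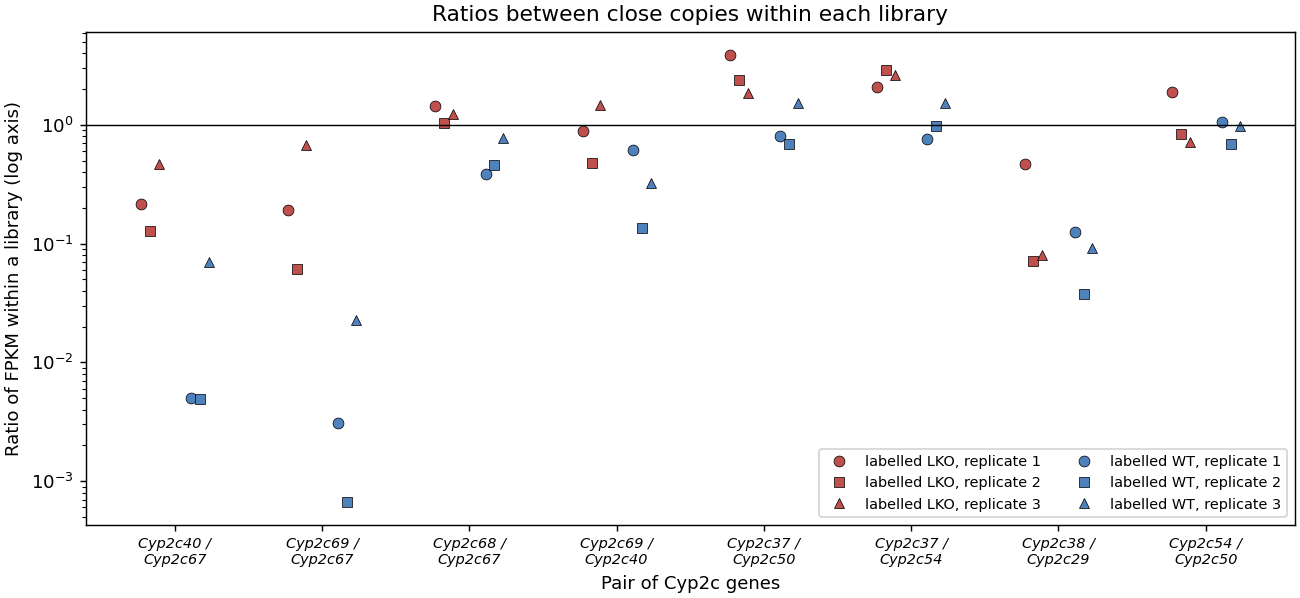
Ratio of FPKM between 8 pairs of Cyp2c genes within each library, on a log axis, libraries labelled LKO in red to the left of those labelled WT in blue, with marker shapes for the replicate number and a line at equal levels. For Cyp2c68 to Cyp2c67 the red points lie between 1.03 and 1.44, above the line, and the blue points between 0.388 and 0.775, below it.

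Over the 6 libraries, with both groups in them, log2(FPKM + 1) of Cyp2c40 and Cyp2c69 ran together (Pearson r = 0.96), as did that of Cyp2c37 and Cyp2c68 (r = 0.97) and of Cyp2c29 and Cyp2c39 (r = 0.95). Cyp2c67 stood apart: its r with Cyp2c40, Cyp2c68 and Cyp2c69, its closest copies, was -0.18, 0.16 and -0.32. The points of a correlation share library and genotype, and copies may share reads, so these values are a description without a p. Outside the family, the genes most like the summed level, among the 9761 genes whose mean reached 1 FPKM, were 4931406C07Rik (r = 0.986), Pdzd8 (r = 0.985), Srp72 (r = 0.983) and Rpp40 (r = 0.981), and 35 genes reached 0.95. Of single members, the most alike gene was Copa for Cyp2c40 (r = 0.989), Scoc for Cyp2c69 (r = 0.990), Tpbgl for Cyp2c37 (r = 0.999) and Eftud2 for Cyp2c68 (r = 0.996). It was Cdc37 for Cyp2c29 (r = 0.999), where 370 genes reached 0.95, Gm11847 for Cyp2c38 (r = 0.992), Desi1 for Cyp2c39 (r = 0.996), Thnsl2 for Cyp2c50 (r = 0.996), Hoga1 for Cyp2c54 (r = 0.982) and Rab4a for Cyp2c67 (r = 0.990).

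Of the 8 Cyp2c genes and pseudogenes outside the 10, 3 passed the filter on low values. Cyp2c23, an epoxygenase that lies apart from the cluster, was at 227, 369.9 and 321 FPKM in the libraries labelled LKO and at 213, 298 and 255 FPKM in those labelled WT (log2 difference 0.25; limma adjusted p = 0.893). Cyp2c70, the enzyme that forms muricholic acids in mice, was at 115, 249.7 and 192 FPKM in the libraries labelled LKO and at 107, 154 and 251 FPKM in those labelled WT (log2 difference 0.14, and -0.15 without WT replicate 1; limma adjusted p = 0.958). Both are as abundant as the main members and overlapped between the groups. Cyp2c55, known best from the gut, was lower in the libraries labelled LKO, with 0.631, 1.12 and 1.42 FPKM in the libraries labelled LKO and 2.0, 2.68 and 2.92 FPKM in those labelled WT. Its groups did not overlap, and the log2 difference was -0.79 ± 0.23 (SE; limma adjusted p = 0.354). Cyp2c65, Cyp2c66 and Cyp2c73-ps were listed at 0 in every library. The pseudogene Cyp2c53-ps, which overlaps Cyp2c29 on the same strand, had 0, 2 and 2 reads in the libraries labelled LKO and 3, 14 and 33 in those labelled WT.

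P450 genes outside Cyp2c were split evenly by sign, but more of them were lower than higher without overlap. Of 83 such genes, 50 were tested and 0 were called by limma (11 at an unadjusted p under 0.05, where the background was 9.22%). Log2 differences were above 0 for 25 and below 0 for 25, with a median of 0.01, and 2 were higher and 10 lower in every library labelled LKO (8.0% and 7.42% of all genes). By family, the median log2 difference was 0.22 over 4 Cyp2a genes, 1.15 over 3 Cyp2b genes, -0.12 over 6 Cyp2d genes and 0.62 over 4 Cyp3a genes. The Cyp2b genes summed to 0.979, 9.25 and 121 FPKM in the libraries labelled LKO and to 0.455, 11.9 and 21.9 FPKM in those labelled WT. These sums overlapped between the groups.

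Genes on which P450 enzymes depend overlapped between the groups. Of 5 electron partners, none was called by limma and none had an unadjusted p under 0.05, against 9.22% of all genes. Por, the reductase that feeds electrons to all P450 enzymes of the endoplasmic reticulum, was at 153, 256 and 231 FPKM in the libraries labelled LKO and at 96.7, 141 and 169 FPKM in those labelled WT (log2 difference 0.66 ± 0.36 SE, limma adjusted p = 0.650). The median over the 5 genes was 0.24. Of 23 other enzymes of eicosanoid metabolism, 13 were tested, 0 were called by limma (1 at an unadjusted p under 0.05, against 9.22% of all genes) and the median was 0.05. Ptgds, a prostaglandin D synthase, was at 1.38, 0.504 and 0.192 FPKM in the libraries labelled LKO and at 2.52, 1.38 and 1.63 FPKM in those labelled WT (limma adjusted p = 0.485). Cyp2j6, an epoxygenase outside Cyp2c, was at 13.1, 12.4 and 10.4 FPKM in the libraries labelled LKO and at 13.98, 22.9 and 23.2 FPKM in those labelled WT, without overlap (limma adjusted p = 0.545).

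Among 22 xenobiotic receptors and liver transcription factors, 0 were called by limma and 2 had an unadjusted p under 0.05, against 9.22% of all genes. In every library labelled LKO 6 were higher and 1 was lower (8.0% and 7.42% of all genes), and the median log2 difference was 0.20. Ahr, the aryl hydrocarbon receptor, was at 9.08, 10.7 and 12.5 FPKM in the libraries labelled LKO and at 4.51, 4.28 and 6.95 FPKM in those labelled WT (log2 difference 0.93; limma adjusted p = 0.339). Foxa3, a forkhead factor of hepatocytes, was at 50.9, 81.6 and 31.1 FPKM in the libraries labelled LKO and at 25.1, 24.5 and 26.9 FPKM in those labelled WT (log2 difference 0.96; limma adjusted p = 0.494). Of 16 tested targets of CAR and PXR outside Cyp2c, 0 were called by limma (2 at an unadjusted p under 0.05, against 9.22% of all genes) and the median was 0.21. Gstm3, a glutathione transferase, was at 3.84, 9.12 and 6.75 FPKM in the libraries labelled LKO and at 43.7, 39.2 and 38.0 FPKM in those labelled WT (log2 difference -2.51; limma adjusted p = 0.0876). Gadd45b, a stress-induced gene, was at 82.5, 23.7 and 3.38 FPKM in the libraries labelled LKO and at 1.76, 1.40 and 0.846 FPKM in those labelled WT (log2 difference 3.18; limma adjusted p = 0.354).

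Because Cyp2c40 and Cyp2c69 are known as genes of female liver, genes of both sex patterns were set beside them. Xist, the transcript that coats the silenced X chromosome in females, had 1, 11 and 1 reads in the libraries labelled LKO and 8, 4 and 13 in those labelled WT. The Y-linked gene Ddx3y was at 10.2 to 11.97 FPKM in the libraries labelled LKO and at 8.16 to 8.97 FPKM in those labelled WT, so all 6 libraries carried the transcripts of male mice; both genes were chosen after their values were seen. Of 23 female-biased genes outside Cyp2c, 12 were tested and 0 were called by limma (6 at an unadjusted p under 0.05, against 9.22% of all genes). Their log2 difference was above 0 for 9 and below 0 for 3, with a median of 1.02, and 3 were higher and 1 lower in every library labelled LKO (8.0% and 7.42% of all genes). Among them, Hao2 had a WT mean of 0.196 FPKM and passed the filter of 0.5 FPKM only through the libraries labelled LKO. The counts and the median over this list therefore depend in part on the filter and are not a result about the list. Hao2, a peroxisomal hydroxyacid oxidase, was at 4.69, 2.28 and 10.3 FPKM in the libraries labelled LKO and at 0.127, 0.305 and 0.156 FPKM in those labelled WT (log2 difference 2.32; limma adjusted p = 0.153). Cyp4a14, a fatty acid hydroxylase, was at 81.2, 123 and 231 FPKM in the libraries labelled LKO and at 1.08, 51.4 and 3.57 FPKM in those labelled WT (log2 difference 4.07; limma adjusted p = 0.319). Fmo2, a flavin monooxygenase, was at 4.28, 11.6 and 6.35 FPKM in the libraries labelled LKO and at 1.80, 1.56 and 3.21 FPKM in those labelled WT (limma adjusted p = 0.320).

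Of 23 male-biased genes, 21 were tested and 2 were called by limma, both lower in the libraries labelled LKO (0.0343% of all genes were called lower). Log2 differences were above 0 for 2 and below 0 for 19, with a median of -1.30, and 11 were lower and 1 higher in every library labelled LKO (7.42% and 8.0% of all genes). Hsd3b5, a steroid dehydrogenase of male mouse liver, fell to 0.966, 0.248 and 0.136 FPKM in the libraries labelled LKO, against 60.4, 125 and 79.4 FPKM in those labelled WT (log2 difference -5.92; limma adjusted p = 0.00482). Susd4, a complement regulator, fell to 0.490, 0.182 and 0.246 FPKM in the libraries labelled LKO, against 14.99, 8.15 and 14.4 FPKM in those labelled WT (log2 difference -3.33; limma adjusted p = 0.0168). Their LKO means were 0.450 FPKM (Hsd3b5) and 0.306 FPKM (Susd4), so both passed the filter of 0.5 FPKM only through the libraries labelled WT. The count of 2 is therefore not a result about this list. Both calls also depended on single libraries: limma gave Hsd3b5 an adjusted p of 0.0600 without WT replicate 3. For Susd4 the limma adjusted p was 0.123 without WT replicate 1, 0.119 without WT replicate 3, 0.168 without LKO replicate 2, and 0.0779 with no filter on low values; without both libraries numbered 1 it was 0.107. Cyp2u1, a P450 of another family, was at 1.43, 2.10 and 1.31 FPKM in the libraries labelled LKO and at 10.7, 8.81 and 12.6 FPKM in those labelled WT (limma adjusted p = 0.0583). Of 14 genes listed for growth hormone signalling and for regulation of the sex pattern, 0 were called by limma (2 at an unadjusted p under 0.05, against 9.22% of all genes). Log2 differences were above 0 for 9 and below 0 for 5, with a median of 0.25. Igfals was at 11.4, 21.7 and 46.2 FPKM (LKO) and at 40.0, 76.0 and 75.6 FPKM (WT), with overlap (log2 difference -1.39; limma adjusted p = 0.481). Nox4, also on this list, was at 1.18, 1.95 and 0.230 FPKM in the libraries labelled LKO and at 3.89, 6.67 and 6.13 FPKM in those labelled WT (limma adjusted p = 0.212). A part of Nox4 in growth hormone signalling or in the sex pattern was not tested.

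Position in the lobule was described by 11 tested pericentral genes, the zone of several Cyp2c enzymes, and 12 periportal genes. None of either list was called by limma. At an unadjusted p under 0.05 there were 2 pericentral genes and 0 periportal genes, against 9.22% of all genes. The median log2 difference was 0.14 over the pericentral and -0.28 over the periportal genes. Rhbg, an ammonium transporter of pericentral cells, was at 6.66, 2.91 and 3.78 FPKM in the libraries labelled LKO and at 0.161, 1.76 and 2.25 FPKM in those labelled WT (limma adjusted p = 0.440). Oat, an ornithine aminotransferase of pericentral cells, was at 384, 497 and 604 FPKM in the libraries labelled LKO and at 145, 215 and 351 FPKM in those labelled WT (log2 difference 1.13; limma adjusted p = 0.466). The pericentral genes summed to 2689, 7037 and 7183 FPKM in the libraries labelled LKO and to 1886, 5317 and 5866 FPKM in those labelled WT, and both libraries numbered 1 were the lowest, as they were for Cyp2c29 and Cyp2c38.

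Acute phase genes and markers of other liver cells were set beside the members as well. Of 20 acute phase genes, which inflammation raises, 0 were called by limma (8 at an unadjusted p under 0.05, against 9.22% of all genes). Log2 differences were above 0 for 15 (54.1% of all genes), with a median of 0.89. In every library labelled LKO 5 were higher and 1 was lower (8.0% and 7.42% of all genes). Itih4, an inter-alpha-trypsin inhibitor heavy chain, was at 680.3, 691 and 620.0 FPKM in the libraries labelled LKO and at 229, 217 and 248 FPKM in those labelled WT (limma adjusted p = 0.175). They summed to 16750, 21063 and 8340 FPKM in the libraries labelled LKO and to 10431, 7900 and 7654 FPKM in those labelled WT, and these sums overlapped. Of 6 neutrophil markers, 2 were tested, S100a8 and S100a9, and Ly6g was at 0 in every library. Both had an unadjusted p under 0.05 (9.22% of all genes) and a log2 difference above 0 (54.1% of all genes). S100a8 had 41, 24 and 9 reads in the libraries labelled LKO and 5, 5 and 4 in those labelled WT. S100a9 had 50, 47 and 16 against 12, 0 and 20. S100a8, with a WT mean of 0.384 FPKM, passed the filter of 0.5 FPKM only through the libraries labelled LKO. The count of 2 is therefore not a result about these markers. The list summed to 2.30 to 12.3 FPKM in the libraries labelled LKO and to 0.560 to 3.23 FPKM in those labelled WT, and these ranges overlapped. The summed markers of Kupffer cells (13.5 to 41.2 and 14.2 to 38.4 FPKM, LKO and WT), endothelial cells (11.7 to 35.1 and 20.5 to 34.7), stellate cells (11.4 to 19.7 and 10.3 to 15.7) and cholangiocytes (7.06 to 28.3 and 10.3 to 18.1) overlapped between the groups. Their part in the Cyp2c values was not tested.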

How the data were processed

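Per the labels' protocols, RNA was isolated from liver with TRIzol and a column kit and made into NEBNext Ultra libraries. Per the submitters' processing notes, the tools were featureCounts 1.5.0-p3, HISAT2 2.0.5, DESeq2 1.20.0 and CASAVA, and the build was mm10. Not given in the sources used here are their roles, the annotation and the handling of reads that match several genes. The authors deposited 1 table of FPKM per library. The unit was read from the values: FPKM times merged exon length (GENCODE vM21) fell on whole reads within 0.05 for 96.1% to 96.4% of values. GENCODE symbols matched 54495 of 54532 identifiers. No value above 0 was identical between libraries.

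The test was limma-trend (limma 3.58.1, R 4.3.3) with genotype as its term, applied to log2(FPKM + 1) of 11672 genes (mean 0.5 FPKM or more) and with robust empirical Bayes. P-values were adjusted by Benjamini-Hochberg over all of these genes, with a threshold of 0.05. The fit was tested on simulated data. Log2 differences are on this scale and understate changes of low genes. Depth was 13947787 to 18159285 reads per library. All 10 members passed the filter. The members and the 16 gene lists were chosen with earlier results of these data known, so no list was tested. Named genes were all members, other Cyp2c genes over the filter, Arid2, up to 3 genes with the smallest p in a list and the genes most alike; Xist and Ddx3y were added. Alternatives were a replicate block, a pseudocount of 0.1, a minimum mean of 1 FPKM or none, leaving out libraries, voom, scaling to recovered reads, quantile normalization and array quality weights. Coding sequences and shared stretches came from GENCODE transcripts, promoters from RefSeq (GRCm38.p6). Sequences were compared with Biopython 1.88, and matplotlib 3.10.9 drew the figures (Python 3.11.15, pandas 2.3.3).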

Additional observations from a re-analysis of the deposited data

How the results depend on the processing

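No Cyp2c member was called by limma under any of the 15 alternatives, with a lowest adjusted p of 0.0520 (Cyp2c69, array quality weights, whose iteration did not converge). The median over the members lay between 0.47 without WT replicate 1 and 1.52 without LKO replicate 1. The summed level had a log2 ratio of 0.80, and 0.74 scaled to recovered reads. Signs turned for Cyp2c29 without WT replicate 1 (-0.40) and without LKO replicate 3 (-0.09), Cyp2c50 without WT replicate 1 (-0.26), Cyp2c67 without WT replicate 2 (0.02), without LKO replicate 1 (0.10) and with array quality weights (0.23), and Cyp2c54 without both libraries numbered 1 (-0.047) and with array quality weights (-0.089). With single libraries left out, Cyp2c29 ranged from -0.40 to 2.17, Cyp2c50 from -0.26 to 0.70 and Cyp2c67 from -0.39 to 0.10. The cause was not tested. Cyp2c37, Cyp2c38, Cyp2c39, Cyp2c40, Cyp2c68 and Cyp2c69 kept their sign under every alternative that tested them; Cyp2c39 was not tested with a mean of at least 1 FPKM. Array quality weights gave 0.93 for Cyp2c37, 0.84 for Cyp2c38, 2.01 for Cyp2c40 and 2.51 for Cyp2c69, voom 5.62 for Cyp2c69, and a pseudocount of 0.1 gave 0.74 for Cyp2c39. Over all genes, the 5 calls became 1 without a filter, 2 without both libraries numbered 1, 3 with quantile normalization, 1195 with array quality weights (621 higher, 574 lower) and 0 to 17 when single libraries were left out: 0 without WT replicate 3 (652 at an unadjusted p under 0.05), 2 without WT replicate 1, 3 without LKO replicate 1 or LKO replicate 2, and 17 without LKO replicate 3. With the replicate block the count was 0 (1478 at an unadjusted p under 0.05) and the lowest adjusted p of a member 0.0599, as for Hsd3b5 and Susd4. Deviations of libraries with the same number correlated at 0.49, 0.30 and -0.02, and LKO replicate 3 correlated best with WT replicate 2. The value of 0.49, for the libraries numbered 1, was the highest of all pairs. The labels do not say what the numbers mark, so the main fit did not treat them as a pairing. Whether they mark a batch was not tested. Depth limits Cyp2c39 (5 to 49 reads per library) and Cyp2c69 in the libraries labelled WT (4 to 92 reads).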
